A study of Mus musculus with 4 samples.

Results

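Comp and Fmod high fibroblasts of the mouse aortic arch were 155 of the 6327 fibroblasts and of the 14148 cells kept over 4 single-cell RNA sequencing libraries. They were chosen by UMIs (unique molecular identifiers, each standing for 1 captured transcript) of 15 genes in each cell. A fibroblast was a barcode with at least 10 Dcn and 1 Pdgfra UMIs, no Ptprc UMI and at most 1 Myh11 UMI. A Comp and Fmod high fibroblast also held at least 5 UMIs of Comp and Fmod together, at most 2 of Pi16 and Dact2, at most 1 of Penk, Epyc and Fgf10, at most 2 of Cilp and Meox1, and at most 1 of Tfap2b and Mab21l2. The last 4 limits, called excluding gates here, keep out fibroblasts that carry the genes of other groups. Of the fibroblasts with at least 5 Comp and Fmod UMIs, 155 of 1168 passed all 4 gates. The other 1013 were excluded, and 967 of the 1168 (82.8%) were past the Pi16 and Dact2 limit.

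Each library came from aortic arches with their main branches and perivascular tissue, pooled from 4 mice in the normocholesterolemic groups and from 3 in the atherosclerotic groups. The male mice came from a cross of C57BL/6 floxed mice with a B6;129 Cdh5-Cre line and were 3 months old when the model was started. They carried floxed Nfe2l2 (the gene of Nrf2) without Cre (label Nrf2Cdh5Lox, flox/flox below) or with Cdh5-Cre (label Nrf2Cdh5tKO). Cre driven by Cdh5 acts in endothelium and in some hematopoietic cells, so fibroblasts are not its main target. Atherosclerotic mice had 1 tail vein injection of an AAV8 vector and a high-fat diet for 21 weeks, whereas normocholesterolemic mice had no vector and a standard diet. Values below are given in the library order normocholesterolemic flox/flox, normocholesterolemic Nrf2Cdh5tKO, atherosclerotic flox/flox and atherosclerotic Nrf2Cdh5tKO. The libraries held 98754487, 43717402, 12276546 and 24184211 UMIs, 3568, 1396, 408 and 955 fibroblasts, and 77, 17, 8 and 53 Comp and Fmod high cells, which together had 855820, 189465, 91499 and 581444 UMIs. With 1 pooled library per condition there is no replicate, so no difference between conditions was tested and each interval is an exact 95% interval for counting error alone. Pooled tissue does not tell which mouse a cell came from, and in 1 library the condition, the pool and the preparation cannot be told apart.

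Comp is a secreted glycoprotein of the thrombospondin family that binds collagen, and Fmod (fibromodulin) is a small leucine-rich proteoglycan that binds collagen fibrils and limits their thickening. Both are best known from tendon and cartilage and are made in arteries too. Hhip is a membrane protein that traps Hedgehog ligands and is itself a target of the pathway, Sfrp2 is a secreted modulator of Wnt signalling, Wisp2 is a matricellular protein of the CCN family, and Ndufa4l2 is a hypoxia-induced mitochondrial protein. In the outer wall of arteries, the adventitia, fibroblasts of the Pi16 and Cd34 type are known as a progenitor-like pool, and other fibroblasts are specialised for matrix.

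Of the 6 marker genes given for these cells, 5 were found by name in GRCm38 with the GENCODE M21 annotation, and Wisp2 was not. Comp is at chr8:70373558-70382066 on the plus strand, Fmod at chr1:134037254-134048277 on the plus strand, Hhip at chr8:79965851-80058006 on the minus strand, Sfrp2 at chr3:83766321-83774316 on the plus strand and Ndufa4l2 at chr10:127514967-127517154 on the plus strand. RefSeq upstream windows (GRCm38.p6) were matched for 3 of the 6. They are shown because they are the markers with an entry in that table, and they run 5′ to 3′ on the strand of the gene over the 250 bases before its start. Capitals mark matches to the GC box, GGGCGG or CCGCCC. The Fmod window is chr1:134037004-134037253, the Hhip window chr8:80058009-80058258 and the Sfrp2 window chr3:83766071-83766320.
Fmod: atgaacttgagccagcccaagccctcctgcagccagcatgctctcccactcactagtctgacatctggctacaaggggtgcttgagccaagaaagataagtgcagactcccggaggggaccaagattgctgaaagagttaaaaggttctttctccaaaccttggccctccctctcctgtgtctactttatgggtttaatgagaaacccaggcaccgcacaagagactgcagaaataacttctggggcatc
Hhip: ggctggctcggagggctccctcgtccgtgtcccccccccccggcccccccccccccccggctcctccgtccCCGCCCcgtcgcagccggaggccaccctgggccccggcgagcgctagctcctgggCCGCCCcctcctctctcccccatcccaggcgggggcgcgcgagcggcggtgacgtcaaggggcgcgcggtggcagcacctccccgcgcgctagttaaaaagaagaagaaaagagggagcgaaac
Sfrp2: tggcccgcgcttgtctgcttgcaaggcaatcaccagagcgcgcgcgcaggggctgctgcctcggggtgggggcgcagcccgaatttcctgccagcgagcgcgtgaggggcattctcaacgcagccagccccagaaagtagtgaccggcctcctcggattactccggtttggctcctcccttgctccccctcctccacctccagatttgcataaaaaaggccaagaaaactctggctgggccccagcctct
The 3 windows differed in base composition, with 51.2% G and C for Fmod, 76% for Hhip and 63.6% for Sfrp2, against a median of 52.4% over 32851 windows. Hhip had 2 GC box matches, at 179 to 174 and at 124 to 119 bases before its start, both as CCGCCC on the gene's strand. A GC box was found in 32.7% of all windows. None of the 3 windows had TATAAA (12.4% of all windows), CCAAT (33.8%) or the GLI motif GACCACCCA (0.225%), searched on both strands. These matches describe letters in a window and say nothing of what binds there.

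Comp and Fmod high cells made up 2.16% of the fibroblasts (interval 1.71 to 2.69%) in the normocholesterolemic flox/flox library and 1.22% (0.711 to 1.94%) in the normocholesterolemic Nrf2Cdh5tKO library. In the atherosclerotic flox/flox library they were 1.96% (0.850 to 3.83%), and in the atherosclerotic Nrf2Cdh5tKO library 5.55% (4.18 to 7.20%). The last library had the highest share and its interval did not overlap those of the other 3. Since the rule counts raw UMIs and depth differed, every fibroblast was also thinned to 5000 UMIs, which left out shallower cells and kept 3186, 1340, 373 and 810 of them. The thinned shares were 3.17% (2.59 to 3.84%), 1.72% (1.09 to 2.56%), 4.83% (2.88 to 7.52%) and 6.91% (5.26 to 8.88%). After thinning, the intervals of the 2 atherosclerotic libraries overlapped. Thinning also changed which cells met the rule, with 81 cells in common between the 155 and the 198 found after it.

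The excluding gates set much of these shares. Without them, 15.8%, 16.8%, 27.5% and 26.8% of the fibroblasts held at least 5 Comp and Fmod UMIs, and 9.79%, 8.51%, 17.4% and 17.2% after thinning. On this wider measure both atherosclerotic libraries were higher than both normocholesterolemic libraries, with intervals that did not overlap (23.2 to 32.1% and 24.02 to 29.7% against 14.7 to 17.1% and 14.9 to 18.9% unthinned). The share of fibroblasts that passed all 4 gates, whatever their Comp and Fmod, was 10.8%, 4.66%, 9.56% and 17.0%. That share was also lowest in the normocholesterolemic Nrf2Cdh5tKO library, whose fibroblasts had the highest median depth (16879 UMIs against 12578.5, 14292.5 and 11587 in the others), and highest in the atherosclerotic Nrf2Cdh5tKO library, the shallowest. After thinning it was 19.5%, 13.2%, 16.4% and 23.7%, with the same library lowest and the same highest.

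**Figure D1:**
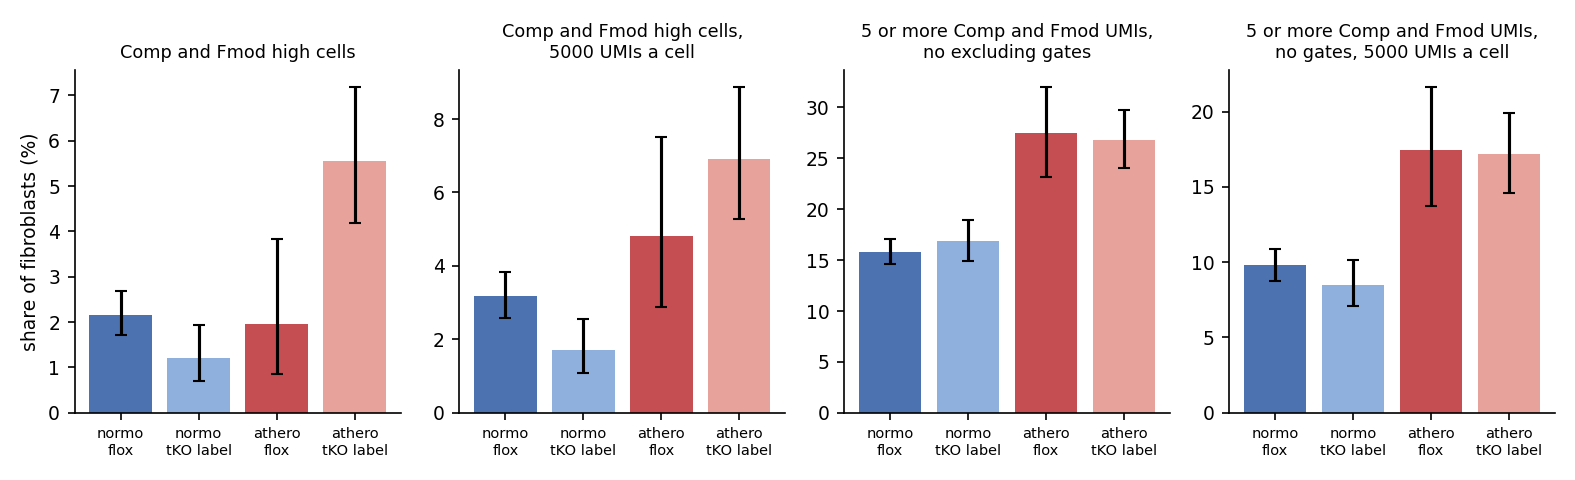
Share of fibroblasts (%) in each library that were Comp and Fmod high cells, the same after thinning every fibroblast to 5000 UMIs, and the share with at least 5 Comp and Fmod UMIs without the excluding gates, before and after thinning. Bars are shares, whiskers exact 95% binomial intervals for counting error, 1 library a bar, and each panel has its own scale: the gated share was highest in the atherosclerotic Nrf2Cdh5tKO library (5.55%), and without gates both atherosclerotic libraries stood at 26.8 and 27.5% against 15.8 and 16.8%.

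Comp and Fmod were the genes of the rule, so their levels are a description. In CPM (the UMIs of a gene summed over the cells of a library, as counts per 1000000 of all their UMIs), Comp was at 1075, 433, 689 and 1020 in the Comp and Fmod high cells and at 146, 120, 171 and 221 in all other fibroblasts. Fmod was at 641, 771, 852 and 528, against 82.5, 87.4, 190 and 126. Comp was lowest in the normocholesterolemic Nrf2Cdh5tKO library and Fmod was lowest in the atherosclerotic Nrf2Cdh5tKO library, so the 2 genes did not follow each other over libraries. There was no gap in the distribution at the threshold. Of the cells that passed the gates, 31 held 3 UMIs of the 2 genes, 24 held 4, 13 held 5 and 17 held 6. In the cells just outside, with 4 UMIs, Comp was at 157 CPM and Fmod at 287 CPM, and in those just inside, with 5, at 366 and 295 CPM, with median depths of 8823 and 4777 UMIs.

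Among the markers outside the rule, Sfrp2 was the most abundant. It was at 4441, 4233, 7268 and 4226 CPM in the Comp and Fmod high cells and at 1123, 987, 1785 and 1969 CPM in the other fibroblasts, higher in 4 of 4 libraries by 1.10 to 2.10 on the log2 scale. A Sfrp2 UMI was found in 94.2% of the Comp and Fmod high cells and in 64.5% of the other fibroblasts, and after thinning in 89.9% and 52.1%. Smooth muscle cells (at least 10 Myh11 UMIs) had one in 63.9% (44.8% thinned) and leukocytes in 18.7% (10.04% thinned), so the share in the other fibroblasts is close to that in smooth muscle cells and nothing is read from it. Hhip was at 137, 143, 32.8 and 146 CPM against 39.8, 48.4, 34.8 and 28.8 CPM. The value for Hhip in the atherosclerotic flox/flox library came from 3 UMIs in 8 cells (interval 6.76 to 95.8 CPM), and in the other 3 libraries Hhip was higher by 1.56 to 2.34. Ndufa4l2 was at 238, 216, 87.4 and 126 CPM against 93.7, 119, 69.2 and 82.3 CPM, with log2 ratios of 1.35, 0.87, 0.34 and 0.61. Wisp2 went both ways, at 480, 179, 372 and 200 CPM against 226, 399, 268 and 258 CPM, which was lower in both Nrf2Cdh5tKO libraries. Thus 1 of the 4 markers outside the rule, Sfrp2, was more than 2-fold higher in every library.

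**Figure D2:**
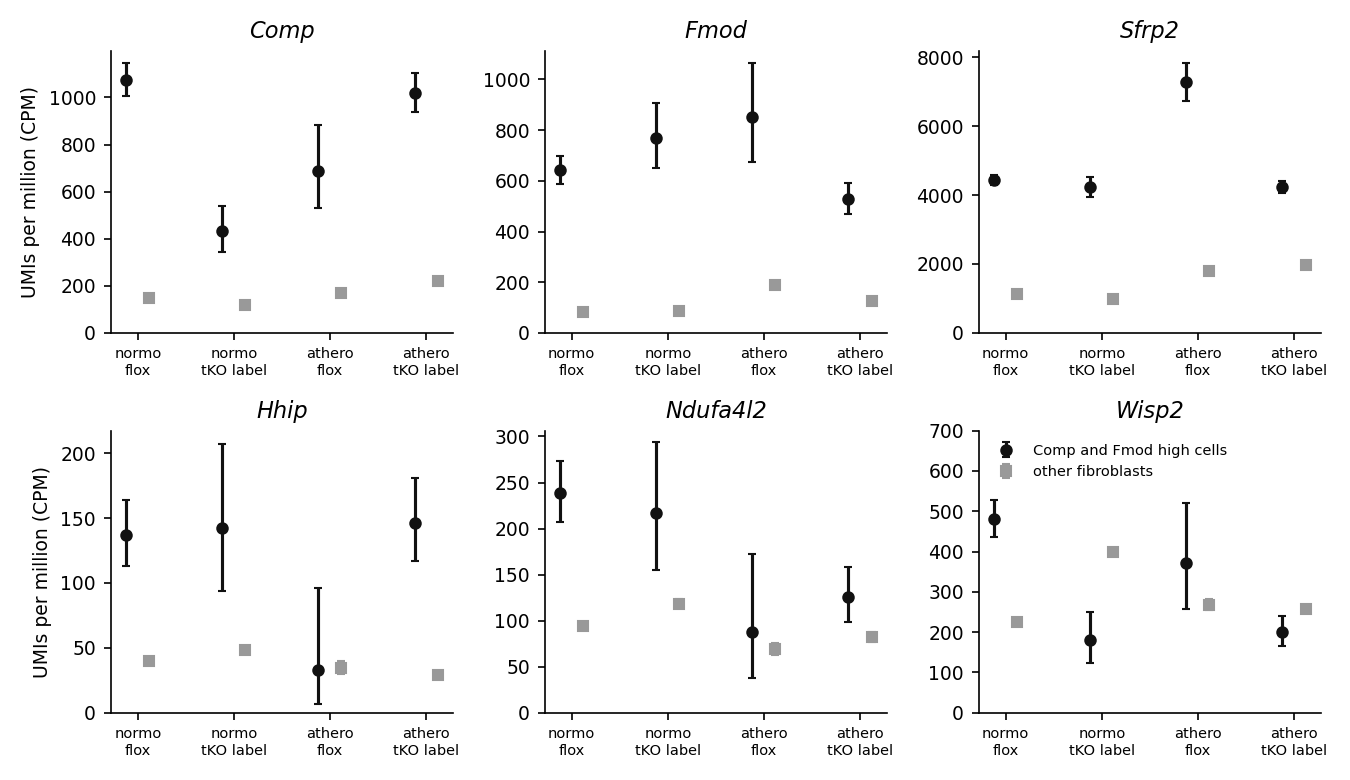
CPM of the 6 marker genes in each library, black circles for Comp and Fmod high cells and grey squares for all other fibroblasts, with exact 95% Poisson intervals for counting error (often within the symbol). Comp and Fmod were used to choose the cells. Sfrp2 stood above the other fibroblasts in all 4 libraries and Wisp2 stood below them in the 2 Nrf2Cdh5tKO libraries.

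These genes were not restricted to the chosen cells. The 1013 excluded fibroblasts with many Comp and Fmod UMIs had Sfrp2 at 3637 CPM, Hhip at 131 CPM and Ndufa4l2 at 212 CPM, beside the 4496, 135 and 190 CPM of the Comp and Fmod high cells pooled over libraries, and Wisp2 at 772 CPM against 346 CPM. The 496 fibroblasts that passed the gates with fewer than 5 Comp and Fmod UMIs had Sfrp2 at 1691 CPM and Hhip at 56.3 CPM. These 496 cells were shallow, with a median of 6008 UMIs against 11088, so a UMI limit is harder for them to reach. Outside fibroblasts, Comp was at 13.5 CPM in smooth muscle cells and 4.74 CPM in leukocytes, Fmod at 2.81 and 3.84 CPM, Hhip at 2.14 and 0.582 CPM and Ndufa4l2 at 3.13 and 1.79 CPM. Sfrp2 and Wisp2 were less restricted, with Sfrp2 at 271 and 27.9 CPM and Wisp2 at 91.7 and 7.10 CPM. A Wisp2 UMI was found in 42.8% of smooth muscle cells, against 38.3% of the other fibroblasts and 53.5% of the Comp and Fmod high cells (24.2%, 30.5% and 41.9% thinned).

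The label under which these cells were proposed calls them adventitial. The data do not place a cell in the wall. Of the 16 genes of a list for adventitial and progenitor fibroblasts, Pi16 and Dact2 belong to the rule. Of the 14 others, 0 were higher and 10 lower by at least 2-fold in all 4 libraries, with a median log2 ratio of -2.82. Over all 13254 genes with at least 50 UMIs, 79 were higher (0.596%) and 87 lower (0.656%) by the same criterion, and the median log2 ratio was 0.06. Only 7897 of the 13254 had a ratio in all 4 libraries and could be called. The gates removed Pi16-rich cells, so the choice of cells bears on genes found with Pi16, and nothing is read from the count. Cd34, a surface sialomucin of progenitor-like fibroblasts, was at 262, 222, 230 and 236 CPM against 705, 771, 725 and 626 CPM. Ly6a, which encodes Sca-1, was at 342, 259, 98.4 and 471 CPM against 1532, 1431, 1876 and 1693 CPM. Clec3b (tetranectin) was at 1368, 1161, 32.8 and 946 CPM against 3381, 3054, 3434 and 3021 CPM. Dcn (decorin), which the rule required in every cell, was at 16306, 12535, 13858 and 16645 CPM against 15826, 13856, 16461 and 15577 CPM. A Pi16 UMI was still found in 61.9% of the Comp and Fmod high cells, where at most 2 were allowed, and in 52.6% of smooth muscle cells and 48.7% of leukocytes, which should lack it. After thinning the shares were 33.3%, 22.9% and 30.99%, and the Pi16 levels were 81.5, 74.9 and 112 CPM, so Pi16 in these cells is not read as expression. The cells are therefore called Comp and Fmod high fibroblasts here.

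By a rule on detection and size, 15 genes were named as higher and 10 as lower than in the other fibroblasts. Angpt2, a secreted ligand of the receptor Tie2, led the genes that were higher, at 67.8, 100, 54.6 and 63.6 CPM against 9.88, 5.99, 11.02 and 12.8 CPM (58, 19, 5 and 37 UMIs). Lamc3 and the predicted gene Gm26771, of unknown role, followed with median log2 ratios of 2.39, and Gm26771 also varied between libraries, from 119 to 1148 CPM. Lamc3, a laminin chain, was at 233, 164, 208 and 103 CPM against 44.3, 31.1, 26.3 and 30.6 CPM. Smoc1, a secreted calcium-binding basement membrane protein, was at 300, 311, 208 and 261 CPM against 67.1, 47.5, 44.6 and 51.5 CPM. Lamc3 and Smoc1 stood above the other fibroblasts in every library, the latter with a median log2 ratio of 2.28. Cpz, a carboxypeptidase that binds Wnt ligands, had a median log2 ratio of 2.17 (132 against 30.4 CPM pooled).

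Ntf3 (neurotrophin 3), a growth factor for sensory and sympathetic neurons, was at 179, 148, 306 and 162 CPM against 46.4, 38.6, 53.2 and 71.9 CPM. Mdk (midkine), a heparin-binding growth factor, was at 360, 322, 208 and 279 CPM against 102, 93.6, 95.8 and 103 CPM. Nr2f2, which encodes the nuclear receptor COUP-TFII, was at 304, 449, 634 and 471 CPM against 97.7, 117, 194 and 164 CPM, and Runx1, a transcription factor, had a median log2 ratio of 1.72. Slc6a6, the taurine transporter, was at 197, 433, 197 and 287 CPM against 43.1, 37.8, 67.5 and 69.3 CPM. Slc5a3, the sodium and myo-inositol cotransporter, had a median log2 ratio of 1.63, and Atp1b1, a subunit of the sodium pump, one of 1.69. The remaining named genes were Ptprd (median log2 ratio 2.07), a receptor phosphatase, Lmod1 (1.93), an actin nucleator of muscle, and Sfrp2. Of the 15, 4 were found in at least as large a share of smooth muscle cells as of the Comp and Fmod high cells, Angpt2 (39.3% against 34.8%), Smoc1 (78.3% against 73.5%), Ptprd (72.04% against 56.8%) and Lmod1 (99.5% against 54.8%). After thinning this held for Lmod1 alone. In CPM, Lmod1 was higher in smooth muscle cells (858 against 119 CPM), while Angpt2 (42.99 against 69.3 CPM), Smoc1 (181 against 283 CPM) and Ptprd (99.9 against 187 CPM) were lower there. Runx1 was found in 65.8% of leukocytes against 58.7% of the Comp and Fmod high cells (50.96% against 41.9% thinned), at 193 against 127 CPM, and Slc6a6 in 57.3% against 64.5% (44.5% against 51.9% thinned). The part of smooth muscle or leukocyte RNA in these differences was not tested.

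The genes that were lower included the adhesion receptor Adgrd1 (median log2 ratio -4.64, from 12 UMIs in all). Fn1 (fibronectin) was at 64.3, 58.1, 10.9 and 27.5 CPM against 731, 696, 1039 and 802 CPM. Has1 (hyaluronan synthase) was at 21.03, 10.6, 0 and 43.0 CPM against 505, 505, 335 and 482 CPM, and Ugdh, which makes the UDP-glucuronate that hyaluronan synthases use, was at 59.6, 79.2, 32.8 and 67.1 CPM against 735, 633, 690 and 735 CPM. In each library Fn1, Has1 and Ugdh were below the other fibroblasts. Fndc1, Lamb1, Cd248 and Lrrn4cl, together with Plac8 and the interferon-inducible Ifi204, completed the 10, with median log2 ratios from -4.26 to -3.36. Of all fibroblasts, 83.6% were past the Pi16 and Dact2 limit, so the choice of cells bears on these 10 genes too. Against the excluded fibroblasts with many Comp and Fmod UMIs, Fn1 and Has1 were called lower, while Ugdh was not (median log2 ratio -0.93). Where the Comp and Fmod high cells of a library had no UMI of a gene, as for Cd248, Has1, Lrrn4cl and Ifi204 in the atherosclerotic flox/flox library and for Plac8 in the normocholesterolemic Nrf2Cdh5tKO library, the ratio was set against 3 UMIs in that library and is a bound.

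**Figure D3:**
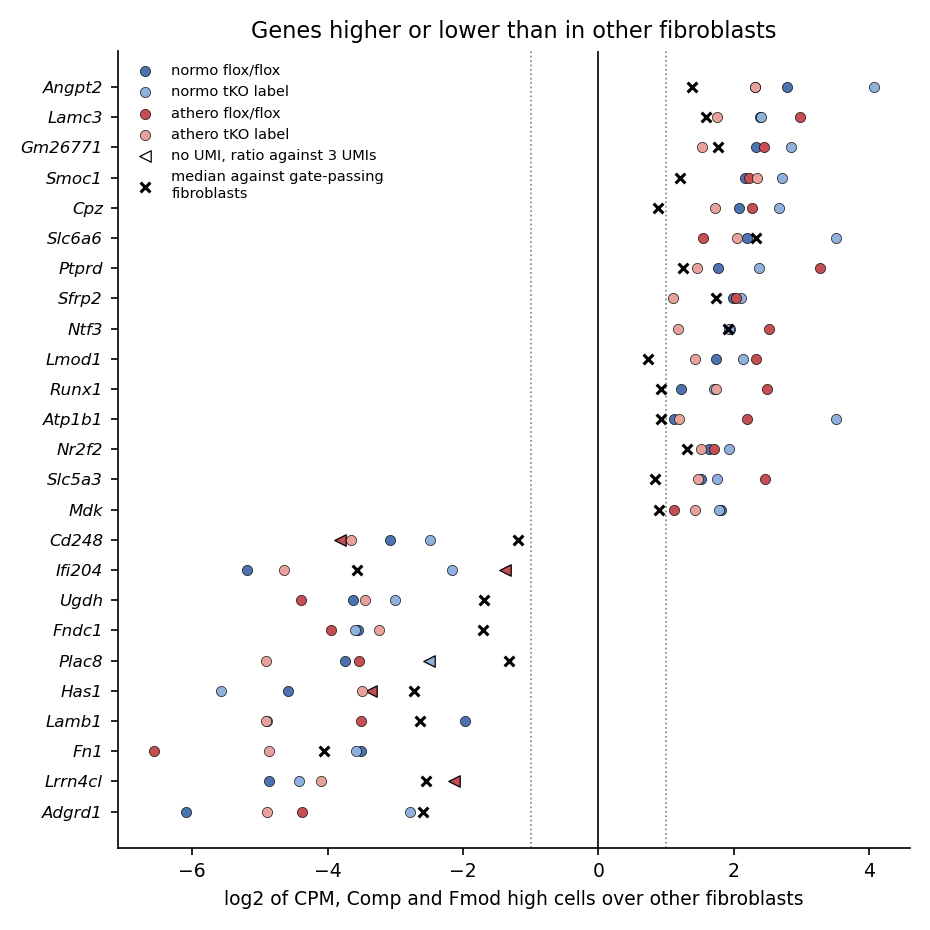
Log2 ratio of CPM, Comp and Fmod high cells over all other fibroblasts, for the 15 genes named as higher and the 10 named as lower, with 1 point a library. Triangles mark libraries with no UMI in the Comp and Fmod high cells, dotted lines a 2-fold difference, and crosses the median ratio over libraries against gate-passing fibroblasts with few Comp and Fmod UMIs: for Cpz, Lmod1, Runx1, Atp1b1, Slc5a3 and Mdk the cross falls inside the line.

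Fewer genes were called against the nearest fibroblasts. Against the 496 gate-passing fibroblasts with few Comp and Fmod UMIs, 8 of 8365 genes were higher (0.0956%) and 6 lower (0.0717%) by the same criterion. The 8 were Comp, Fmod, Slc6a6, Chst2, Sost, Gdf10, AI507597 and Nr2f2. Sost, which encodes the secreted Wnt antagonist sclerostin, was at 66.3 CPM in the Comp and Fmod high cells and at 16.1 CPM in these neighbours. In smooth muscle cells it was at 760 CPM. Gdf10, a ligand of the TGF-beta superfamily, was at 541 CPM against 147 CPM, and Chst2, a sulfotransferase, at 59.4 CPM against 19.5 CPM. The 6 that were lower were Fn1 (48.3 CPM against 482 CPM), Adgrd1, Tnfaip6, Tcf21, Ptx3 and Ugdh. Tcf21, a transcription factor of fibroblast precursors, was at 13.4 CPM against 92.6 CPM, and Tnfaip6, which binds hyaluronan, and the pentraxin Ptx3 were at 106 and 30.3 CPM against 360 and 133 CPM. Of the 79 genes higher than in all other fibroblasts, 43 had a median ratio of at least 2-fold against these neighbours, and of the 87 that were lower, 44 did. Both comparisons use the same 155 cells, and Comp and Fmod are among the higher genes, so nothing is read from these counts. Whether the 155 cells are a type apart from these neighbours was not tested, and the genes called against all other fibroblasts are not called particular to them.

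Against the 1013 excluded fibroblasts with many Comp and Fmod UMIs, 8 of 10660 genes were higher (0.075%) and 12 lower (0.113%). Lamc3 (180 CPM against 84.0 CPM), Angpt2 (69.3 against 19.9 CPM) and the water channel Aqp1 (126.9 against 21.3 CPM) were the higher genes with more than 20 UMIs, and the other 5, among them Nid2, had 14 to 20 UMIs over all 155 cells. Pi16 and Penk, which were gated, were lower, as were Angptl7, Fndc1, Has1, Ly6c1, Fn1, Ly6a, Fbln2, Sfrp1, Emilin2 and Cd248.

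Read by gene list, with the genes of the rule left out, the Wnt antagonists and targets had 4 of 16 tested genes higher and 0 lower (Frzb, Sfrp2, Dkk3 and Sost), at a list median of 0.11 log2, beside 0.596% higher and 0.656% lower over all genes compared. Frzb, a secreted Wnt antagonist, was at 46.7, 73.9, 175 and 43.0 CPM against 13.7, 14.9, 10.2 and 16.2 CPM, and Dkk3 at 367, 343, 437 and 461 CPM against 161, 109, 141 and 165 CPM. Sost was at 760 CPM in smooth muscle cells, and the part of their RNA in its level was not tested. Sfrp1, another secreted Wnt antagonist of the list, went the other way without being called, at 59.9 against 274 CPM pooled over libraries. Against the excluded fibroblasts with many Comp and Fmod UMIs the list median was -0.38 log2. Wnt ligands and receptors had 0 of 26 in either direction. The Hedgehog list also had 0 of 19, with a median of 0.30, and its ligands Shh, Ihh and Dhh had no UMI in the Comp and Fmod high cells, which allows up to 3.51, 15.8, 32.8 and 5.16 CPM in the 4 libraries. The pathway targets Ptch1 and Gli1 were at 84.1, 100, 10.9 and 77.4 CPM and at 29.2, 42.2, 32.8 and 39.6 CPM, against 36.9, 53.1, 38.1 and 35.9 CPM and 23.1, 28.3, 24.4 and 27.9 CPM. Ptch1 was thus above the other fibroblasts in 3 libraries and below them in the atherosclerotic flox/flox library, where 1 UMI was counted.

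Matrix lists showed few called genes. Of 9 small leucine-rich proteoglycans 1 was higher, Lum (lumican), at 3168, 2454, 2240 and 2262 CPM against 1388, 957, 752 and 878 CPM. Fibrillar and associated collagens had 0 of 11 called, with a median of 0.14 log2, other collagens 0 of 17 and collagen processing 0 of 22. The fibrillar list summed to 17078, 18521, 8984 and 9497 CPM against 8743, 11755, 9030 and 7436 CPM. Of 15 elastic fibre genes, 4 were lower and none higher, beside 0.656% and 0.596% of all genes. The gates removed Pi16-rich cells, so nothing is read from this count either. The 4 were Fbn1 (fibrillin), Fbln2, Mfap5 and Emilin2, and Eln itself was at 806, 649, 907 and 425 CPM against 465, 937, 450 and 342 CPM. The tendon list had 1 of 10 lower (Tppp3) and 0 higher, and its transcription factor Scx had no UMI in these cells. Cartilage and calcification genes had 0 of 19 called, with Acan, Col2a1 and 11 other genes of the list at 0, and of 31 matrix proteases and inhibitors 1 was higher, the inhibitor Timp4 (44 UMIs). Thrombospondins other than Comp had 0 of 4 and the CCN family 0 of 5.

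For secreted immune factors, 1 of 33 chemokine, cytokine and complement genes was higher and 2 were lower, beside 0.596% and 0.656% of all genes compared, which also stand behind the counts that follow. Tnfrsf11b, which encodes the RANKL decoy osteoprotegerin, was at 76.0, 73.9, 109 and 107 CPM against 32.3, 28.3, 17.0 and 42.5 CPM. The chemokine Ccl2 was at 68.9, 26.4, 43.7 and 51.6 CPM against 331, 183, 162 and 238 CPM, and complement C3 at 498, 670, 940 and 884 CPM against 1701, 1539, 2299 and 2064 CPM. Of 35 growth factors and receptors, Mdk and Ntf3 were higher and Igfbp5 and Angptl7 lower. Interferon-stimulated genes had 0 of 29 higher and 1 lower (Ifi27l2a), with a median of -0.51. Of 23 Nrf2 targets, 0 were higher and 1 was lower, G6pdx (14 UMIs). The lists for the TGF-beta and BMP pathway (41 tested), hypoxia and glycolysis (26), immediate early and stress genes (33) and sterol and lipid handling (22) had no gene called. Fibroblast identity genes, 10 outside the rule, had Lum higher and Mfap5 lower.

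Markers of other cells were measured in the same cells. The smooth muscle list summed to 768 CPM in the Comp and Fmod high cells, 482 CPM in the other fibroblasts and 43925 CPM in smooth muscle cells, with Acta2 highest at 443 CPM. The pericyte list summed to 797 CPM against 429 CPM, of which Abcc9, a channel subunit, gave 478 CPM, while Higd1b and Vtn were at 0. The endothelial list summed to 52.4 CPM against 50.3 CPM, with 6 of 10 genes at 0, among them Cdh5 and Vwf. The leukocyte list summed to 325 CPM against 358 CPM (Cd74 85.6 CPM), the glial list to 30.3 against 51.7 CPM, the adipocyte list to 12.2 against 44.3 CPM with Adipoq and Plin1 at 0, the cardiomyocyte list to 17.5 against 24.2 CPM, the chondrocyte list to 5.82 against 8.67 CPM with 8 of 9 genes at 0, and the proliferation list to 7.57 against 9.71 CPM. The mesothelial list stood at 135 CPM against 14.7 CPM, and all 232 of its UMIs lay in 1 cell of the normocholesterolemic Nrf2Cdh5tKO library, while 154 cells had none. Without that cell 77 genes were higher and 93 lower than in the other fibroblasts. The median mitochondrial share was higher in the Comp and Fmod high cells than in the other fibroblasts in each library, at 2.42%, 2.55%, 2.47% and 2.04% against 1.70%, 1.82%, 1.83% and 1.67%, and its part in the differences was not tested. Scrublet marked none of the 155 as a doublet and 40 of the 6172 other fibroblasts. Of 30 barcodes found in more than 1 library, 1 belonged to a Comp and Fmod high cell.

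Comp and Fmod were not evenly shared within the 155 cells. Both genes had a UMI in 69 cells (44.5%), Comp alone in 33 (21.3%) and Fmod alone in 53 (34.2%). The sum of the 2 reached from 5 to 87 UMIs with a median of 11. Spearman's rho between Comp and Fmod per 10000 UMIs over the 155 cells was -0.57, a description that the limit on their sum pulls below 0. The cells with Comp alone were 14, 4, 1 and 14 over the 4 libraries, and those with Fmod alone 26, 9, 2 and 16. The levels that follow are pooled over libraries. Of the markers outside the rule, 3 were higher in cells with Fmod alone and 1 in cells with Comp alone. Hhip was at 208 CPM with Fmod alone and 37.1 CPM with Comp alone, Sfrp2 at 5748 and 1992 CPM, and Wisp2 at 466 and 118 CPM, whereas Ndufa4l2 was at 189 and 263 CPM. Eln (elastin) was at 751 and 236 CPM, and Fbln5, which links elastic fibres to cells, at 1096 and 395 CPM. In the cells with Comp alone, Prg4 (lubricin) was higher, at 453 CPM against 55.9 CPM, although 11 cells carried its 134 UMIs. Col3a1 was at 5376 CPM against 2349 CPM, but 1 cell held 58.7% of its UMIs in the cells with Comp alone, and without the cell with the most UMIs of each kind the levels were 2375 and 2072 CPM. Ly6c1 was at 192 CPM against 34.2 CPM and Sfrp1 at 142 CPM against 31.1 CPM. For Hhip, 1 cell held 72.7% of the UMIs in the cells with Comp alone. Leaving out such cells, which was done after seeing the data, kept the direction of the 10 genes named here. Hhip was then at 168 CPM with Fmod alone and 10.9 CPM with Comp alone, Prg4 at 50.7 and 254 CPM and Ly6c1 at 16.0 and 157 CPM. Cells with Comp alone were shallower, with a median of 8017 UMIs against 11850, so the absence of Fmod UMIs in them is less firm.

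**Figure D4:**
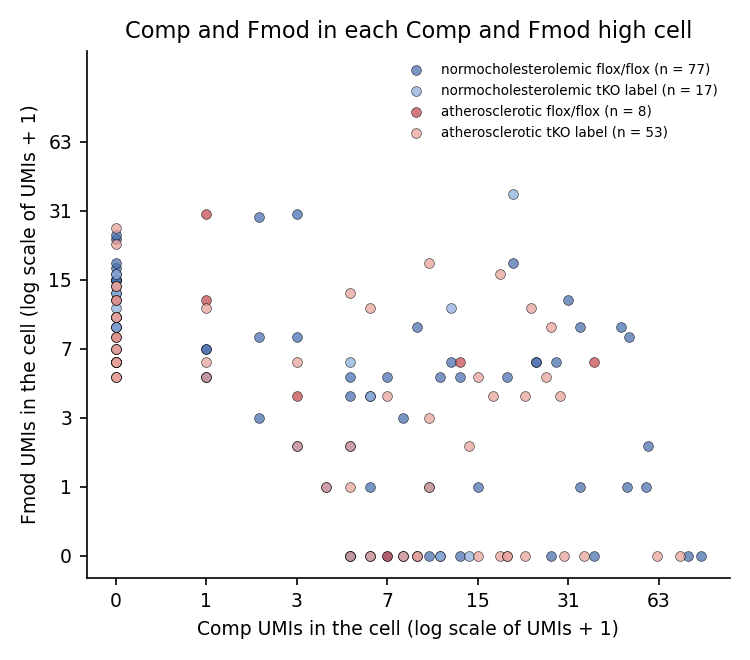
Comp against Fmod UMIs in each of the 155 cells, on log scales of UMIs + 1 and coloured by library, with cells of equal counts on top of each other. Cells lie along both axes as well as between them: 33 had Comp without Fmod, 53 Fmod without Comp and 69 both.

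The first axis of variation over 300 variable genes, computed after the cells were chosen, took 3.55% of the variance in these cells, beside 2.89% for the second. Spearman's rho of the first axis with depth was -0.061. The 7 genes with the largest loadings at one end were Lamc3, S100a4, Lmcd1, Eln, Ctgf, Bok and Igf1, and Tnfrsf11b, Frzb and Wisp2 followed. Lamc3 had 280 CPM in the 77 cells on that side and 69.7 CPM in the 78 on the other, and Ctgf, a CCN family matricellular protein, 1913 and 674 CPM. The 7 at the other end were Ccl11 (the chemokine eotaxin), Lgi2, Sfrp1, the complement genes C3 and C4b, the collagen gene Col6a6 and Gpx3. Of the cells on the Lamc3 side, 48, 7, 5 and 17 came from the 4 libraries, and of those on the Ccl11 side 29, 10, 3 and 36. The Lamc3 side thus held 48 of 77 cells of the normocholesterolemic flox/flox library and 17 of 53 of the atherosclerotic Nrf2Cdh5tKO library. Since these sides come from the same values, they are a description.

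Atherosclerotic and normocholesterolemic libraries were compared within each genotype label, with a gene called where both pairs differed by at least 2-fold the same way and both counting intervals left out 0. Of 2248 genes with enough UMIs in the Comp and Fmod high cells, 10 were higher (0.445%) and 8 lower (0.356%) in the atherosclerotic libraries. Of the 8 lower genes, 3 encode fibrillar collagens. Col3a1 was at 3572 and 3927 CPM in the normocholesterolemic libraries (flox/flox first) and at 1377 and 1367 CPM in the atherosclerotic ones, log2 ratios of -1.38 (interval -1.64 to -1.12) and -1.52 (-1.67 to -1.38). Col1a1 was at 4448 and 4624 CPM against 2153 and 2009 CPM, log2 ratios of -1.05 and -1.20, and Col5a2 at 276 and 338 CPM against 65.6 and 157 CPM. Sparc, a collagen-binding matricellular protein, was at 6789 and 6993 CPM against 2623 and 3022 CPM. Of the 6 fibrillar collagens with enough UMIs 3 were called lower, with list medians of -1.21 and -1.005 log2, against -0.02 and -0.01 over all genes tested. Col1a1 and Sparc were no longer called when the cell with the most UMIs of the gene was left out of every library, whereas Col3a1 and Col5a2 were. The smaller log2 ratio of Col1a1 and that of Sparc stayed below 0 without that cell.

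The same ratios in the other fibroblasts were -0.51 and -1.34 for Col3a1, 0.00 and -0.79 for Col1a1 and -0.24 and -0.87 for Sparc, of the same sign but smaller, with that of Col1a1 in flox/flox at no difference. Whether the ratios differ between the Comp and Fmod high cells and the other fibroblasts was not tested, since there is no replicate. Of 11814 genes in the other fibroblasts, 47 were higher (0.398%) and 102 lower (0.863%), and none was called in the same direction in both sets of cells. Some called genes moved about as much in the other fibroblasts and missed the 2-fold limit there in 1 pair. Gm10076 had ratios of -2.67 and -1.16 in the Comp and Fmod high cells and of -2.93 and -0.91 in the other fibroblasts, and Gm11808 had ratios of 1.77 and 1.26 and of 1.63 and 0.94. The remaining lower genes were Bace2, Ccdc3 (no UMI in the 8 cells of the atherosclerotic flox/flox library), Gm10076 and AY036118. Few cells carried some of these sums. Of the UMIs in the normocholesterolemic Nrf2Cdh5tKO library, 1 of 17 cells held 33.9% for Col3a1, 38.5% for Col1a1 and 36.6% for Sparc. In the normocholesterolemic flox/flox library 1 of 77 cells held 30.6% for Col3a1, 18.8% for Col1a1 and 13.2% for Sparc.

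Among the higher genes, C4b (complement C4) was at 330 and 185 CPM in the normocholesterolemic and at 1126 and 556 CPM in the atherosclerotic libraries, log2 ratios of 1.77 and 1.59 against -0.20 and 0.93 in the other fibroblasts. Cxcl2, a neutrophil chemokine, was at 37.4 and 68.6 CPM against 404 and 208 CPM, but 1 of 8 cells of the atherosclerotic flox/flox library held 86.5% of its UMIs there. Likewise 1 cell held 83.3% of the Serpinb6b UMIs and 84.2% of the Rrad UMIs. The other 6 were Herc2, Gm11808, Rasl11a, Golph3, Foxo1 and Phpt1, each with at most 29 UMIs in the atherosclerotic flox/flox library. When the cell with the most UMIs of each gene was left out of every library, 7 of the 18 remained called, Col3a1, Col5a2, C4b, Herc2, Gm11808, Gm10076 and AY036118. The smaller of the 2 ratios changed sign under at least 1 alternative for 6 of the higher genes, Serpinb6b, Cxcl2, Rasl11a, Golph3, Foxo1 and Rrad. Ctgf and Clec3b were not called. Ctgf was at 1149, 1261, 3049 and 1328 CPM and Clec3b at 1368, 1161, 32.8 and 946 CPM, with the atherosclerotic flox/flox library, of 8 cells, apart from the other 3 in both.

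**Figure D5:**
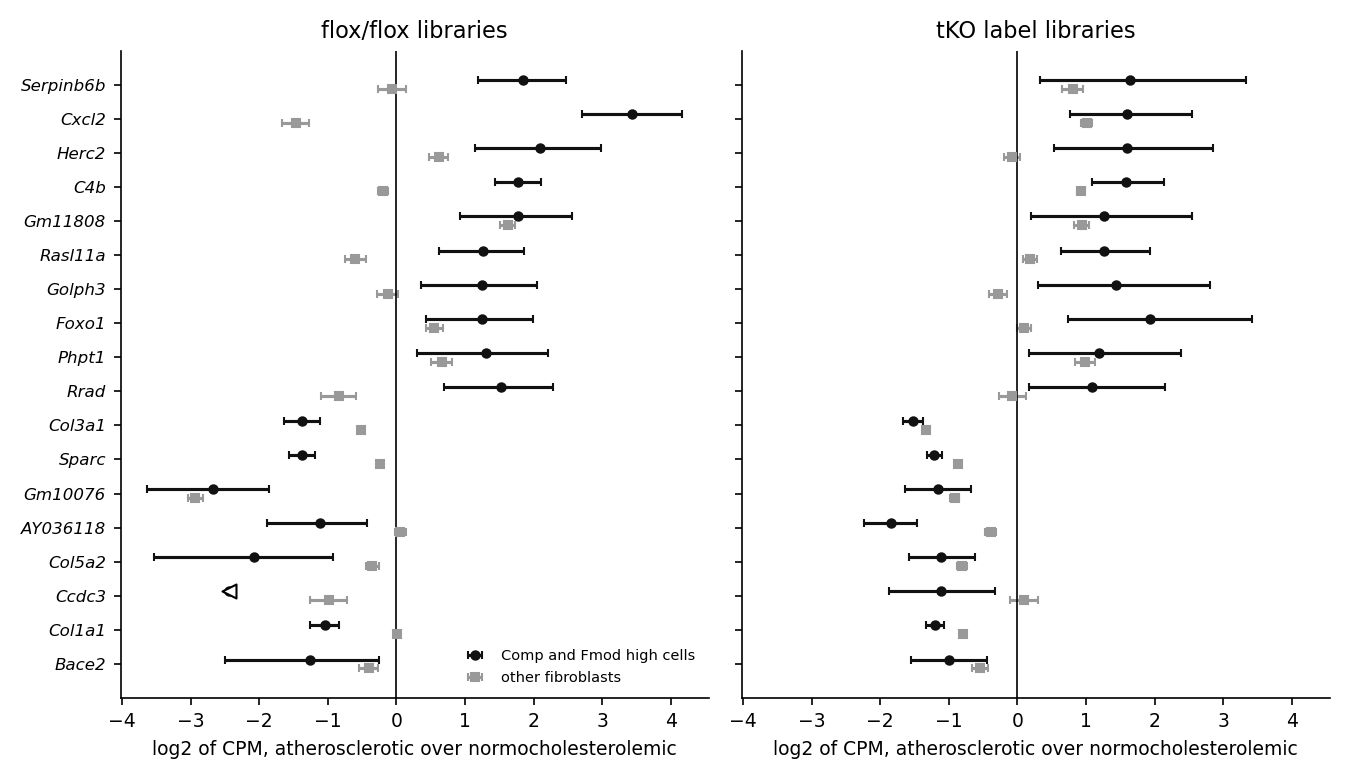
Log2 ratio of CPM, atherosclerotic over normocholesterolemic library, in the flox/flox and in the Nrf2Cdh5tKO-labelled (tKO label) pair, for the 18 genes called in the Comp and Fmod high cells (black) with the same ratio in the other fibroblasts (grey). Whiskers are 95% counting intervals and the open triangle (Ccdc3) a bound against 3 UMIs. Col3a1, Sparc and Col1a1 lie left of 0 in both panels, between -1.52 and -1.05, and Sparc and Col1a1 were no longer called without the cell with the most UMIs of the gene.

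For the genotype labels, the targeted gene Nfe2l2 was read first. It was at 109, 280, 109 and 163 CPM in the Comp and Fmod high cells (93, 53, 10 and 95 UMIs) and at 192, 203, 205 and 249 CPM in the other fibroblasts, and was not lower in the libraries labelled Nrf2Cdh5tKO. In the endothelial gate, where Cdh5-Cre acts, it was at 188, 386, 142 and 417 CPM from 61, 34, 22 and 15 cells, also not lower. UMIs per gene do not tell exons apart, so this level is no check of the excised exon, and Nrf2Cdh5tKO stands for the label throughout. Of the Nrf2 targets in the Comp and Fmod high cells, Hmox1 was at 42.1, 21.1, 43.7 and 30.96 CPM and Gclm at 29.2, 42.2, 65.6 and 49.9 CPM, from 4 to 36 UMIs a library. Of 7 Nrf2 targets with enough UMIs none was called, with list medians of -0.53 and 0.04 log2 in the normocholesterolemic and the atherosclerotic pair.

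By the same criterion, 4 of 2054 genes were higher (0.195%) and 3 lower (0.146%) in the libraries labelled Nrf2Cdh5tKO, against 5 (0.0466%) and 4 (0.0373%) of 10736 in the other fibroblasts, with none in common. The higher genes were Cdh11, Ptgs2, Filip1l and Gm42418. Cdh11, a cadherin of mesenchymal cells, was at 65.4 and 227 CPM in the normocholesterolemic and at 54.6 and 148 CPM in the atherosclerotic pair (flox/flox first). Ptgs2 (cyclooxygenase 2) was at 157 and 422 CPM and at 10.9 and 332 CPM, and the value of 10.9 was 1 UMI. Gm42418, a transcript that overlaps a ribosomal RNA repeat, was at 5152 and 43454 CPM and at 8732 and 21632 CPM, highest in the 17 cells of the normocholesterolemic Nrf2Cdh5tKO library. Its part in the other ratios was not tested. The lower genes were Phex, a peptidase known from bone, at 72.4 and 5.28 CPM and at 230 and 63.6 CPM, Serpinb6b and Nupr1. In the other fibroblasts the log2 ratios were 0.77 and 0.70 for Ptgs2, 0.62 and 0.42 for Filip1l and -1.22 and -0.25 for Phex. Those of Cdh11, Gm42418, Serpinb6b and Nupr1 differed in sign between the pairs there. Without the cell with the most UMIs of each gene, Cdh11 and Phex remained called of the 7 and 9 genes were called in all. The smaller of the 2 ratios changed sign without the excluding gates for Cdh11 and Nupr1 and without the top cell for Serpinb6b. It also did so for Ptgs2, Filip1l and Nupr1 in the cells that met the rule after thinning.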

How the data were processed

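Single-cell suspensions of pooled aortic arches were sorted for DAPI-negative cells and processed with 10x Genomics 3′ v3.1 chemistry. The deposited values are whole UMI counts per gene and barcode, not normalized, which the authors made with Cell Ranger 6.1.2 on mm10. They hold 31053 genes and 15599 barcodes, and the limits of the study's methods (200 to 6000 genes, no more than 15% of UMIs from mitochondrial genes) were applied to them. Doublets were not removed beyond the limit on genes. Cell types were not taken from the study.

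The cells, gene lists and comparisons were chosen with earlier results of these data known, so nothing here is independent support for them. Counts were summed over the cells of a group in each library and divided by all their UMIs (CPM). Ratios within a library carry exact limits, which treat a gene's UMIs as split binomially between the groups, levels an exact Poisson interval and shares a Clopper-Pearson interval. A count of 0 was set to a floor of 3 UMIs a library for a ratio, and no ratio was taken where both groups were at or under it. Only genes with at least 50 UMIs were compared. Calls need a 2-fold difference in all 4 libraries (cells against other fibroblasts) or in both pairs of libraries with intervals that leave out 0. No test was run, since each condition is 1 library and the cells were chosen by values of the same cells. Of the 13254 genes compared with other fibroblasts, 7897 had a ratio in all 4 libraries, and only these could be called, while percentages are of all 13254.

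Named genes outside the rule needed a UMI in at least 25% of the cells of the higher group in every library. The 15 highest and 10 lowest medians were named, and in pairs of libraries up to 10 genes in each direction, by the smaller ratio. Genes shown outside this rule, such as those that differ between cells with Comp alone and Fmod alone, were chosen after their values were seen. Of the 34 gene lists, 3 listed genes were not matched. The scripts were tested on simulated data. Python 3.11.15, numpy 2.4.6, pandas 2.3.3, scipy 1.17.1, scanpy 1.11.5 (with its Scrublet) and matplotlib 3.10.9 were used. Alternatives are given in the closing section.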

Additional observations from a re-analysis of the deposited data

Results flagged for a closer look

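Some genes moved in opposite directions in the 2 pairs of libraries, with counting intervals that left out 0 in both. With 1 library per condition, these differences between pairs were not tested. For the atherosclerotic over the normocholesterolemic library in the Comp and Fmod high cells, the log2 ratio of Comp was -0.64 in flox/flox and 1.24 in the Nrf2Cdh5tKO-labelled pair, while that of Fmod was 0.41 and -0.55. Both genes were used to choose the cells. Ptprd had ratios of 1.93 and -0.72, Atp1b1 of 0.71 and -1.45, and Gm42418 of 0.76 and -1.01. For the Nrf2Cdh5tKO label over flox/flox, the log2 ratio of Comp was -1.31 in the normocholesterolemic and 0.57 in the atherosclerotic pair. Those of Gm26771 were 2.07 and -1.35, and those of Ptprd 0.88 and -1.77. All these ratios rest on 8 cells in the atherosclerotic flox/flox library or on 17 in the normocholesterolemic Nrf2Cdh5tKO library.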

How the results depend on the processing

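No paired analysis was possible because each condition was 1 library, so the groups share fewer than 2 replicate numbers. Libraries were set side by side in pairs as ratios. An additive fit over the 4 libraries, whose residual would be the interaction of label with the joint vector and diet treatment, was not run. For the ratios of marker and named genes to other fibroblasts, a called gene was followed by its call. An uncalled gene was followed by whether it stayed within the spread of its ratios over libraries. By these measures 537 values stayed the same over the alternatives, 30 lost the call and 3 of uncalled genes moved. No called gene changed sign, and signs of uncalled genes were not followed. A lost call can leave the median past 2-fold, as for Sfrp2 against gate-passing fibroblasts (1.73 log2). List medians stayed within their spread in 412 values and moved in 25.

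The number of genes higher than in the other fibroblasts (79) was 132 without the excluding gates, 8 against gate-passing fibroblasts and 125 to 139 with 1 library left out. That of lower genes (87) was 204, 6 and 106 to 143, the last without the atherosclerotic flox/flox library. Fewer libraries make a call easier to reach. For the share of fibroblasts, at least 3 Comp and Fmod UMIs gave 2.999% in the normocholesterolemic flox/flox and 7.33% in the atherosclerotic Nrf2Cdh5tKO library, and at least 10 gave 1.37% and 3.35%. At least 5 per 10000 UMIs gave 2.77% in the normocholesterolemic flox/flox library, where thinning gave 3.17%, and thinning gave 4.83% in the atherosclerotic flox/flox library. Without gates the shares were 15.8%, 16.8%, 27.5% and 26.8%.

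The word diet here stands for the AAV8 vector and the high-fat diet together, which the libraries do not separate. The 18 genes called for diet became 48 without gates, 10 with the mean over cells of CPM, 5 with a minimum of 200 UMIs and, in an alternative added after seeing the data, 7 without the cell with the most UMIs of each gene. The 7 called for the label became 11 in cells of at least 10000 UMIs and 2 with a minimum of 200 UMIs. Signs turned for some named genes, given as the smaller log2 ratio of the 2 pairs. In the cells that met the rule after thinning, with their full counts, they were -0.056 for Serpinb6b, -0.21 for Rasl11a and -0.44 for Golph3 (diet). For the label they were -0.089 for Ptgs2, -0.086 for Filip1l and 0.16 for Nupr1 in those cells. Without gates they were -0.044 for Serpinb6b, -0.39 for Cxcl2 and -0.056 for Foxo1 (diet), and -0.059 for Cdh11 and 0.15 for Nupr1 (label). Without the top cell they were -0.27 for Serpinb6b and -0.61 for Rrad (diet) and 0.11 for Serpinb6b (label). The cause was not tested. Of the other values of genes called in pairs, 242 kept their call and 119 lost it. A call was lost through the ratio, the interval or the minimum of UMIs, so a lost call can leave the ratio past 2-fold. A pool of 8 cells with 91499 UMIs limits every comparison with the atherosclerotic flox/flox library: a gene with no UMI there may be at up to 32.8 CPM.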
